A study of Mus musculus with 59 samples.

Results

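The late neutrophil granule genes described here are 10 genes chosen by name: S100a8, S100a9, Ltf, Camp, Ngp, Lcn2, Mmp8, Mmp9, Lrg1 and Chil3. All 10 were found in each of the 8 gene-level tables used, which list 51812 genes for the untimed libraries and 51810 for the timed ones, and all 10 passed the filter on low values in every comparison. The study asked whether loss of Daxx, a histone H3.3 chaperone, in mouse bone marrow drives neutrophil output through Pu.1, the haematopoietic transcription factor encoded by Spi1. RNA was sequenced from 2 sorted populations of C57BL/6 bone marrow: KLS cells (lineage-negative, c-Kit+, Sca-1+), which hold the stem and multipotent progenitor cells, and granulocyte-monocyte progenitors (GMPs). Genotypes were Daxx +/+ (WT), Daxx F/F (Daxx-KO), Daxx F/F Pu.1 F/F (DKO), Pu.1 +/+ (WT of the Pu.1 line) and Pu.1 F/F (Pu.1-KO), all of them, WT included, with Cre +/-. For each cell type the libraries were 2 WT and 2 Daxx-KO with no time given (untimed), 3 WT, 3 Daxx-KO and 2 DKO at 3 weeks after induction (w.p.i.), 2 WT and 2 Pu.1-KO of the Pu.1 line at 3 w.p.i. and 2 WT at 24 w.p.i., which makes 36 libraries. Columns of the Pu.1 line, WT and Pu.1-KO alike, and of WT at 24 w.p.i. carry numbers that match no label. Their genotype was inferred from the control or treatment ending that the same number carries in the repeat-element columns.

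The timed libraries carried Mx1Cre, an interferon-inducible Cre that acts in haematopoietic and some other cells and was switched on with poly(I:C) in WT and floxed mice alike. The labels name neither a Cre line nor an induction for the untimed libraries. The methods describe a set of KLS and GMP libraries made in duplicate from donor cells sorted out of transplanted mice, and whether the untimed libraries are that set is not given in the labels. Age and sex of each mouse are not given either. Libraries of 1 table are called 1, 2 and 3, or a and b where the labels number none of them. In the 3 w.p.i. tables the same number marks the same animal number in the KLS and the GMP columns, and WT 3 is the control whose number matches no label.

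Neutrophils fill their granules in order as they mature in the marrow. Azurophil (primary) granule proteins such as elastase and myeloperoxidase are made first, in promyelocytes, and the proteins of the specific (secondary) and gelatinase (tertiary) granules follow in myelocytes and metamyelocytes, a switch that depends on the transcription factor C/EBP epsilon. Transcripts of the later granules are therefore a sign of late maturation and are usually scarce in stem cells and early progenitors. Ltf (lactoferrin), Camp (the cathelicidin CRAMP), Ngp (neutrophilic granule protein) and Lcn2 (lipocalin 2, which binds siderophores) belong to the specific granules. Mmp8 (neutrophil collagenase) and Mmp9 (gelatinase B) are matrix proteases of the specific and gelatinase granules. S100a8 and S100a9 encode the cytosolic calcium-binding pair calprotectin, Lrg1 encodes a secreted leucine-rich glycoprotein of neutrophils and liver, and Chil3 encodes the chitinase-like lectin Ym1 of mouse neutrophils and some macrophages.

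In GRCm38 the genes lay on 4 chromosomes, all were protein coding, and none overlapped another annotated gene. S100a8 (chr3:90668978-90670035, plus strand) and S100a9 (chr3:90692632-90695721, minus strand) are neighbours, and Chil3 lies elsewhere on the same chromosome (chr3:106147554-106167564, minus strand). Camp (chr9:109847379-109849617, minus strand), Ngp (chr9:110419747-110423012, plus strand) and Ltf (chr9:111019271-111042767, plus strand) lie close to one another on chromosome 9, which also holds Mmp8 (chr9:7558456-7568485, plus strand). Lcn2 (chr2:32384633-32388252, minus strand) and Mmp9 (chr2:164940780-164955850, plus strand) are on chromosome 2, and Lrg1 (chr17:56119678-56122001, minus strand) is on chromosome 17.

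Promoters of 5 genes are given first, chosen for how the genes differed in KLS cells at 3 w.p.i., as the 250 bases before the RefSeq start (GRCm38.p6), 5′ to 3′ on the gene's strand: Ngp, Camp and Lrg1, which rose there in the libraries labelled DKO, and Ltf and Chil3, which were not called. Capitals mark matches, on either strand, to the C/EBP motif TTNNGNAA or to the PU.1 core GAGGAA, and the RUNX core TGTGGT was searched as well. The windows are chr9:110419558-110419807 for Ngp, chr9:109849457-109849706 for Camp, chr17:56121947-56122196 for Lrg1, chr9:111019042-111019291 for Ltf and chr3:106167565-106167814 for Chil3.
Ngp: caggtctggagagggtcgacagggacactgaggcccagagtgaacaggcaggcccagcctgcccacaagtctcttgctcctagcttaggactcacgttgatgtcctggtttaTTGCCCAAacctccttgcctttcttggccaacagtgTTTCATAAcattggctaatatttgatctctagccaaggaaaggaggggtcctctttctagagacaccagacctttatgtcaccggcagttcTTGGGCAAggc
Camp: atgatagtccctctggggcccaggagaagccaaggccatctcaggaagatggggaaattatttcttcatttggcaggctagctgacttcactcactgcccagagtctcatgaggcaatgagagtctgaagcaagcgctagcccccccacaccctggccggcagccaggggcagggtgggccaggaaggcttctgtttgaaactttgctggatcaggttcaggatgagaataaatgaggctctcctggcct
Lrg1: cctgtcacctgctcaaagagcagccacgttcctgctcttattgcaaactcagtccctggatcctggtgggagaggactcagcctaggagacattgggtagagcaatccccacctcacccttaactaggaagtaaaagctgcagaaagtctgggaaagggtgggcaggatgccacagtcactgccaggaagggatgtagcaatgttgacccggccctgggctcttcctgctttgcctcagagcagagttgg
Ltf: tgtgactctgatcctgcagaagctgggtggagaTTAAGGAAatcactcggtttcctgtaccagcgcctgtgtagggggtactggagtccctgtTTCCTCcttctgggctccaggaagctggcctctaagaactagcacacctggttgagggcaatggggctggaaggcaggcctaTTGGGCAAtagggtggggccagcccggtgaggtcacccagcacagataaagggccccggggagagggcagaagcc
Chil3: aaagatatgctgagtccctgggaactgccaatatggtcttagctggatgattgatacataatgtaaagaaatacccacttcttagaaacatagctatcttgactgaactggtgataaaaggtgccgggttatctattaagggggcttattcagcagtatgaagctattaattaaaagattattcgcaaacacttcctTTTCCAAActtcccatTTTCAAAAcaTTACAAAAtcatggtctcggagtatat
Searching 300 bases (250 before and 50 after the start) of the 9 genes with a RefSeq window found a C/EBP motif in 7 of them, against 40.7% of all 32851 promoters. The PU.1 core was found in 4 of the 9 genes against 28.3% of promoters, and the RUNX core in 2 against 16.8%. Ngp and Chil3 held 3 C/EBP matches each, Ltf held 2 C/EBP matches with 1 PU.1 core and 1 RUNX core (the latter after the start), and Camp and Lrg1 held no match to any of the 3 motifs. Both genes without a match were among those that rose in the KLS libraries labelled DKO. A match is a description of the sequence only.

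Depth ranged from 3388906 to 22647397 reads assigned to genes in the untimed libraries and from 10699070 to 29335964 in the timed ones. Daxx lay lower in Daxx-KO and DKO than in WT in each table, at 82.6, 102 and 72.2 normalised counts in the 3 w.p.i. KLS libraries of Daxx-KO, 93.9 and 78.1 in DKO and 423, 467 and 505 in WT. Spi1 was not called lower where its loss was labelled or inferred. It rose in the KLS libraries labelled DKO (log2 change 0.76 over WT, adjusted p = 0.016 by limma) and was not called in the Pu.1 line. Its level was 3330.4 and 2993 in the KLS libraries labelled DKO against 1676, 1669 and 2320.0 in WT, and 2589 and 2707 in the GMP libraries labelled Pu.1-KO against 3395 and 3934 in WT. Gene-level counts do not show which exons the reads fell in, so they cannot show whether the floxed part was lost. These samples are called the libraries labelled DKO and Pu.1-KO, although the genotype of each column of the Pu.1 line, WT included, was inferred, as given above. Elane, a GMP marker, was 20621 to 53615 in GMPs at 3 w.p.i., a range that also held the KLS libraries labelled DKO (44193 to 49324). The summed KLS markers at 3 w.p.i. were 64843 to 91909 in WT KLS cells and 7675 to 12972 in WT GMPs. They were lower in some KLS groups, at 27453 to 35566 in DKO and 9868 to 10801 in untimed Daxx-KO. Among the untimed KLS libraries the 2 WT stood far apart, with the 10 genes together at 0.0941% of gene reads in WT 1 and 0.000583% in WT 2.

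In KLS cells at 3 w.p.i., 4 of the 10 genes rose in the libraries labelled DKO over WT and none fell, against 9.24% of all genes tested called higher and 17.6% called in either direction. Ngp, Camp, Lrg1 and S100a8 were the 4. Against Daxx-KO, 6 of the 10 rose (S100a9 and Lcn2 as well) and none fell, where 8.17% of genes were called higher and 15.4% called in all. Both comparisons used the same 2 DKO libraries. The size of the change was not shared: Ngp was 30.8 times its WT mean, whereas Ltf lay within the range of the WT libraries and Chil3 below it.

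Ngp was 140992 and 100171 normalised counts in the 2 DKO libraries. In WT it was 887, 124 and 10749.5, and in Daxx-KO 542, 2949 and 359.9. Both DKO libraries stood far above the highest of the others, WT 3, and the groups did not overlap. Means were 120582 ± 28865 (SD, n = 2) in DKO, 3920.1 ± 5927 (SD, n = 3) in WT and 1284 ± 1445 (SD, n = 3) in Daxx-KO (log2 change 6.81 ± 1.49 SE, adjusted p = 0.014 against WT, and log2 change 7.16 ± 1.49 SE, adjusted p = 0.011 against Daxx-KO, by limma with Benjamini-Hochberg adjustment). A difference of this kind in sorted cells may be more cells that hold the transcript or more transcript per cell, and bulk libraries cannot tell these apart.

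Camp, which encodes an antimicrobial peptide, was 14066 and 17221 in DKO, with 165, 53.8 and 2266 in WT, and Daxx-KO gave 129, 335 and 111. DKO lay above all 6 other libraries (log2 change 5.83 ± 1.19 SE, adjusted p = 0.010 against WT). Lrg1 was 1638 and 1282 in DKO, with 16.2, 4.41 and 168 in WT, and Daxx-KO gave 7.92, 15.3 and 0. In Daxx-KO it was close to or at the floor of detection, and DKO again lay above every other library (log2 change 5.85 ± 1.42 SE, adjusted p = 0.021 against WT and log2 change 8.11 ± 1.42 SE, adjusted p = 0.0047 against Daxx-KO).

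The calprotectin genes were higher by less. S100a8 was 4541 and 6097 in DKO, with 230.2, 90.9 and 2454 in WT, and Daxx-KO gave 127, 406 and 112, with WT 3 the closest to DKO (log2 change 3.82 ± 1.10 SE, adjusted p = 0.040 against WT). S100a9, its partner, was 4529 and 8963 in DKO and 529.6, 204 and 6949.9 in WT, where WT 3 lay between the DKO libraries and the change was not called (adjusted p = 0.13 by limma). Against Daxx-KO, at 303, 852 and 198, it was called (log2 change 4.10 ± 1.19 SE, adjusted p = 0.044). Lcn2 was 5289 and 4959.6 in DKO, with 293, 36.2 and 1963 in WT, and Daxx-KO gave 136, 543 and 80.6. Its groups did not overlap, and it missed the threshold against WT (adjusted p = 0.054 by limma) and passed it against Daxx-KO (log2 change 4.81 ± 1.32 SE, adjusted p = 0.036).

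Lactoferrin, a specific granule protein like Ngp and Camp, was not called with them. Ltf was 189.7 and 440.4 in DKO, with 423, 16.8 and 3891 in WT, and Daxx-KO gave 179, 1265 and 87.9, and both DKO libraries lay inside the range of each other group (log2 change -0.09 ± 1.82 SE, adjusted p = 0.98 against WT). Chil3 was 12.5 and 27.0 in DKO against 183, 40.6 and 2421 in WT, and Daxx-KO gave 134, 476 and 100.4. Each DKO library lay below all 6 others, although the difference did not pass the threshold (log2 change -3.77 ± 1.35 SE, adjusted p = 0.083 against WT). Mmp8 stayed low in all 8 libraries, at 8.62 and 3.86 in DKO and up to 49.0 in WT 3. Mmp9 was 17.2 and 92.5 in DKO and 19.5, 0 and 81.0 in WT, with the groups overlapping. Taking the 10 genes by overlap, 5 had both DKO libraries above every WT library and 1 had both below, where 26.0% and 23.7% of all genes did so. Against Daxx-KO the counts were 7 above and 1 below, where the share of all genes was 22.3% in each direction. The median log2 fold change of the 10 genes was 3.31 against WT and 4.45 against Daxx-KO, and that of all genes was -0.01 or closer to 0.

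**Figure D1:**
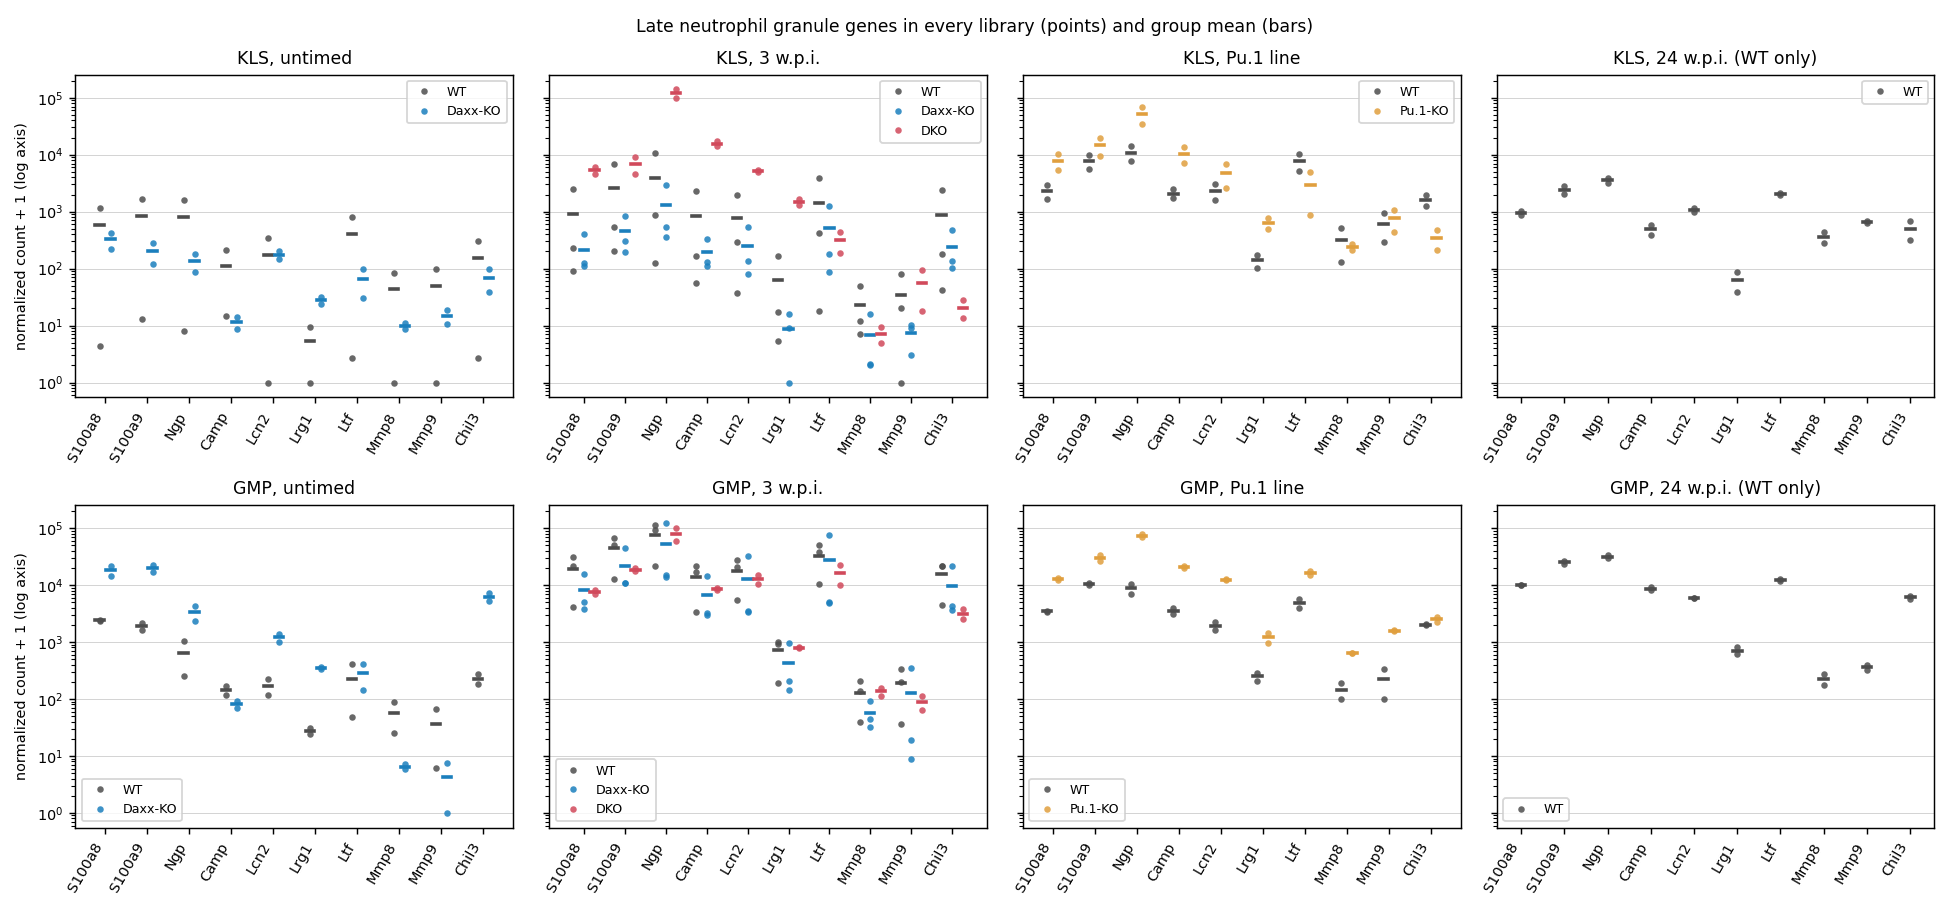
Normalised counts plus 1 (log axis) of the 10 genes in every library, 1 panel per table, with points for libraries and short bars for group means. In KLS cells at 3 w.p.i. the 2 DKO points of Ngp, Camp, Lcn2 and Lrg1 lie above all WT and Daxx-KO points while those of Chil3 lie below them, and in GMPs at 3 w.p.i. the 3 genotypes overlap for nearly every gene.

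Single libraries decided some of these calls. On leaving out 1 library at a time, the S100a8 call over WT was lost in 6 of 8 fits and the Lrg1 call in 4. Ngp and Camp each lost theirs in 1. Against Daxx-KO the calls of S100a9 and Lcn2 were each lost in 5 of 8 fits and that of S100a8 in 4. Leaving out DKO 1 left no gene called in either comparison, although Ngp then still had a log2 fold change of 6.56 over WT (adjusted p = 0.12 by limma), and leaving out WT 3, the highest WT library for all 10 genes, raised the count over WT from 4 to 6. Fits that leave out DKO 2 called 2 over WT and 3 over Daxx-KO, those without WT 1 called 2 over WT, and those without Daxx-KO 1 or Daxx-KO 3 called 3 over Daxx-KO.

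Genes related to the 10 were counted from lists. Of 12 primary granule genes tested in these KLS cells, 6 rose over WT in the DKO libraries and none fell (median log2 change 1.65), among them Elane (neutrophil elastase, log2 change 4.13) and Ctsg (cathepsin G, 3.95). Of 24 other late neutrophil genes, 12 rose and 1 fell (median 2.02), with Orm1 (an acute-phase carrier protein, 6.62), Ceacam10 (5.79), Olfm4 (a specific granule glycoprotein, 5.46) and Cd177 (a neutrophil surface protein, 5.17) at the top. Of 11 regulators of granulocyte fate, 6 rose and none fell (median 1.16), led by Cebpe (C/EBP epsilon, 4.60, adjusted p = 0.013 by limma) and Gfi1 (a repressor needed for neutrophil development, 2.83). Cebpe was 1813 and 1534 normalised counts in DKO, 105, 15.9 and 180.1 in WT and 45.3, 18.8 and 5.23 in Daxx-KO. As for Ngp, the DKO libraries stood apart and WT 3 came next. Against Daxx-KO the counts were 8 of 12 primary granule genes higher and none lower, 13 of 24 other late neutrophil genes higher and 2 lower, and 7 of 11 regulators higher and 1 lower.

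Markers of other cells moved in the same libraries. The summed normalised count of 10 KLS markers was 27453 and 35566 in the DKO libraries, 64843 to 91909 in WT and 38908 to 71999.5 in Daxx-KO, with 5 of the 10 called lower than in WT. The sum of 8 GMP markers was 99145 and 104080 in DKO, 23233 to 52168 in WT and 17434 to 22224 in Daxx-KO. Much of the DKO sum came from 2 primary granule genes on that list, Elane (44193 to 49324) and Mpo (37886 to 47431). Of the 8 GMP markers, 2 were called higher and 1 lower than in WT (median log2 change -0.05). Against Daxx-KO, 3 were called higher and 2 lower (median 0.71). Kit, which encodes the c-Kit receptor of the sort, was 9846 and 9961 in DKO and 16527, 15072 and 11867 in WT, and Ly6a, which encodes Sca-1, was 329 and 565 against 305, 245 and 433. Of the transcripts that mark mature neutrophils, Ly6g was 26.8 and 74.2 in DKO, 0, 0 and 19.0 in WT and 0 in each Daxx-KO library. Retnlg was 82.4 and 205 in DKO and 0 to 1.13 in Daxx-KO (log2 change 6.36, adjusted p = 0.017 by limma against Daxx-KO). Cxcr2, the chemokine receptor of circulating neutrophils, was 19.2 and 23.1 in DKO and 14.05, 18.5 and 54.0 in WT, so the groups overlapped. Itgam (CD11b, an antigen of the lineage panel) was 96.8 and 176 in DKO, below its 1299, 720.3 and 2592 in WT. The summed plasma cell markers were 161149 and 202681 in DKO, 2970 to 118881 in WT and 53731 to 144585 in Daxx-KO, with Igkc listed at 0 throughout. The part of these markers in the granule gene values was not tested.

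Daxx-KO and WT KLS cells at 3 w.p.i. gave no call among the 10 genes by limma, where 0.257% of all genes were called. None of the 10 reached an unadjusted p under 0.05, against 1777 of 15200 genes, and edgeR and DESeq2 (without its outlier filter) called none either. Log2 fold changes ran from -2.25 to -0.18 with a median of -0.78, and the libraries of the 2 genotypes overlapped for each gene. The spread within a genotype was far wider than the difference between them: over the 3 WT libraries Ltf ran from 16.8 to 3891 and over the 3 Daxx-KO libraries from 87.9 to 1265. By the share of all gene reads taken by the 10 genes, the WT libraries stood at 0.0208%, 0.00438% and 0.233%, the Daxx-KO libraries at 0.0122%, 0.0499% and 0.00824%, and the DKO libraries at 1.13% and 1.02%.

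In GMPs at 3 w.p.i., whose columns carry the same animal numbers, none of the 10 genes was called in any of the 3 comparisons by limma, where 0.0948% of all genes were called for Daxx-KO against WT, 0.292% for DKO against WT and 0.0583% for DKO against Daxx-KO. At an unadjusted p under 0.05 the count was 1 of the 10 for DKO against WT (Chil3) and 0 for the other 2 comparisons, and edgeR and DESeq2 called none. Ngp was 99132 and 59853 in DKO, with 110764, 21961 and 90664 in WT and 15250.1, 124824 and 13961 in Daxx-KO, with all groups overlapping. Ltf was 22589 and 9877 in DKO, and 49431, 10615 and 38466 were its WT values, while Daxx-KO spanned 4736, 73957 and 5124. Both genes differed more between animals of a genotype than between genotypes, with Daxx-KO 2, WT 1 and WT 3 high and Daxx-KO 1, Daxx-KO 3 and WT 2 low. Chil3 was 3743 and 2491 in DKO, below each of its WT values of 21922, 4380.3 and 21286, while Daxx-KO spanned 3660.2, 21358 and 4273. Log2 fold changes over the 10 genes ran from -1.80 to -0.87 for Daxx-KO against WT, from -2.05 to 0.48 for DKO against WT and from -1.18 to 1.40 for DKO against Daxx-KO.

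The order of animals was partly shared by the 2 cell types. The 10 genes took 0.355%, 2.54% and 0.394% of gene reads in GMPs of Daxx-KO 1, 2 and 3, and Daxx-KO 2 was also the highest Daxx-KO library in KLS cells. WT 2 was the lowest WT library in both, at 0.520% in GMPs, where WT 1 and WT 3 took 2.50% and 1.98%. GMPs labelled DKO took 1.39% and 0.938%. With 2 or 3 animals per genotype this is a description with no test.

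**Figure D2:**
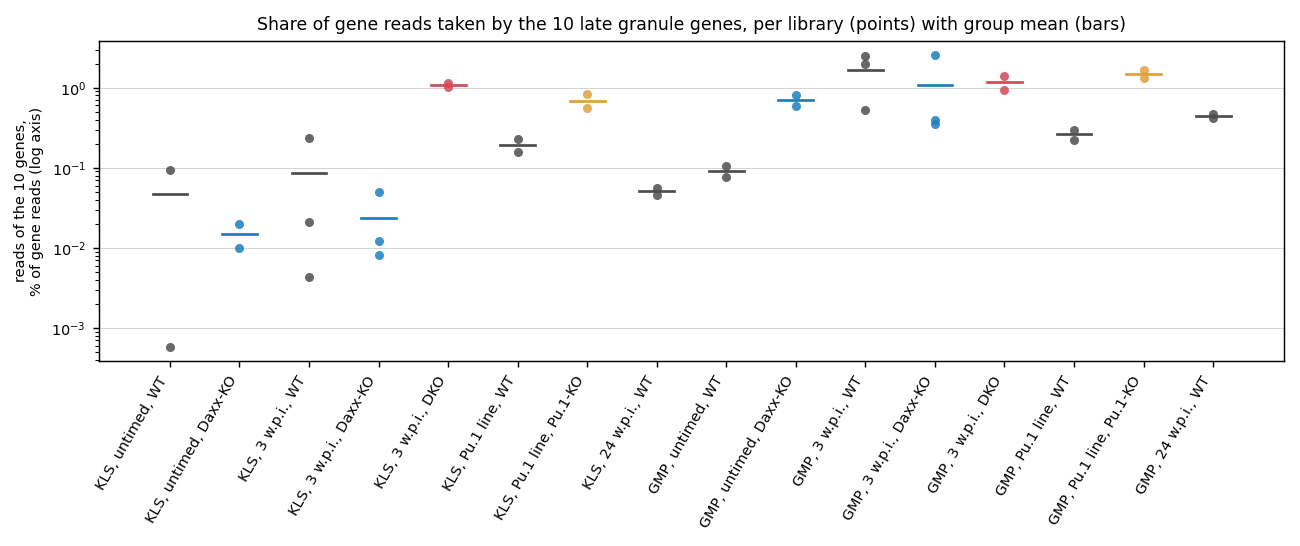
Share of all gene reads taken by the 10 genes together (%, log axis) in each library (points), with group means (bars), for the 16 combinations of cell type, set and genotype. The 2 DKO libraries of KLS cells at 3 w.p.i. (1.13% and 1.02%) sit in the range of the GMP libraries, and the 2 untimed WT KLS libraries lie furthest apart.

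Pu.1-KO libraries of the Pu.1 line gave the broadest change, in GMPs. There 9 of the 10 genes rose and none fell, against 9.15% of all genes called higher and 17.6% called in all, and for all 10 both Pu.1-KO libraries lay above both WT libraries, where 31.5% of all genes did so. The median log2 fold change was 2.23, against -0.0023 for all genes. Ngp was 68822 and 78058 in Pu.1-KO, against 10314 and 7079.6 in WT, or 8.44 times the WT mean (log2 change 3.10 ± 0.33 SE, adjusted p = 1.3e-17 by limma). Mmp9 was 1591 and 1575 in Pu.1-KO, against 336 and 100.5 in WT, with both Pu.1-KO libraries well above WT (log2 change 3.10 ± 0.26 SE, adjusted p = 2.4e-30). These very small p-values rest on a spread shared across genes, since limma gave genes of like level the same spread in both tables of the Pu.1 line.

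The other specific granule genes rose together with Ngp. Lcn2 was 12102 and 12747 in Pu.1-KO GMPs, against 2226 and 1593 in WT (log2 change 2.72 ± 0.25 SE, adjusted p = 2.4e-24). Camp was 21501 and 19881 against 3929 and 3050.2 (log2 change 2.58 ± 0.27 SE, adjusted p = 1.2e-18). Ltf, which was not called in the KLS libraries labelled DKO, was 17436 and 14754 against 5731 and 3945 (log2 change 1.75 ± 0.27 SE, adjusted p = 1.9e-08). In each of these genes the lower Pu.1-KO library was more than 2 times the higher WT library.

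Mmp8 was 628 and 639 in Pu.1-KO GMPs, against 189 and 100.5 in WT (log2 change 2.19 ± 0.29 SE, adjusted p = 6.9e-12), and Lrg1 was 955 and 1457 against 289 and 208 (log2 change 2.26 ± 0.26 SE, adjusted p = 6.1e-16). Of the calprotectin genes, S100a8 was 13491 and 12406 against 3364 and 3546 (log2 change 1.90 ± 0.26 SE, adjusted p = 7.8e-11), and S100a9 was 33510.2 and 26518 against 10881 and 9910.4 (log2 change 1.52 ± 0.31 SE, adjusted p = 6.2e-05). S100a9 had the smallest change of the 9 called genes. Chil3 was the exception, at 2278 and 2771 in Pu.1-KO, against 2078 and 1955 in WT (log2 change 0.32 ± 0.24 SE, adjusted p = 0.33). Its groups did not overlap and its difference was small. Leaving out 1 library left between 5 genes (without WT b) and 10 called.

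Among related genes in these GMPs, 16 of 26 other late neutrophil genes rose and none fell (median log2 change 1.40), including Orm1 (log2 change 4.05), Ly6g (4.05), Ceacam10 (3.57) and Adam8 (a sheddase of myeloid cells, 3.13). Of 13 primary granule genes none rose and 6 fell (median -0.68), among them Ms4a3 (a marker of GMPs, -1.92), Prtn3 (proteinase 3, -1.46) and Ctsg (-0.78). Klf5 (1.72) and Cebpe (0.65) rose and Myb (-0.98), a factor of immature progenitors, fell among 11 regulators. Ly6g was 279.5 and 277 normalised counts in Pu.1-KO GMPs and 14.8 and 17.0 in WT. Of 8 GMP markers 3 fell and none rose, and of 9 B-cell markers 6 rose. Whether cells of another kind in the sort added to the granule gene values was not tested.

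KLS cells of the Pu.1 line gave 2 calls among the 10 genes, 1 in each direction, against 0.810% of all genes called, 0.469% higher and 0.341% lower. Lrg1 rose from 175 and 102 in WT to 774 and 499 in Pu.1-KO (log2 change 2.21 ± 0.59 SE, adjusted p = 0.040 by limma). Chil3 fell from 1965 and 1278 to 471 and 215 (log2 change -2.31 ± 0.57 SE, adjusted p = 0.023). Neither gene's libraries overlapped between the genotypes.

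The uncalled genes pointed different ways. Ngp was 68897 and 33912 in Pu.1-KO KLS cells, against 13951 and 7833 in WT, and Camp was 13591 and 7236 against 2457 and 1704, with both Pu.1-KO libraries above both WT libraries and no call (log2 change 2.28 ± 0.73 SE, adjusted p = 0.065). Ltf was 5006 and 878 in Pu.1-KO, against 10411 and 5164 in WT, with both Pu.1-KO libraries below (log2 change -1.81 ± 0.71 SE, adjusted p = 0.11). S100a8 lay above WT at 10137 and 5425 against 2939.9 and 1677 (log2 change 1.74 ± 0.71 SE, adjusted p = 0.12), while S100a9, Lcn2, Mmp8 and Mmp9 overlapped. In all, 4 of the 10 genes had both Pu.1-KO libraries above WT and 2 below, where 33.7% and 31.9% of all genes did so. The deposited scaling left the median of all genes at 0.12, and TMM scaling moved it to 0.26. By TMM 4 of the 10 genes were called, where 1599 of 23459 genes were. By DESeq2 5 were called, where 846 of 19293 genes were. On leaving out 1 library the median log2 change of the 10 genes ran from 0.29 to 1.49.

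In these KLS cells no primary granule gene of 13 was called, nor any of 12 regulators, and 2 of 26 other late neutrophil genes rose, Ceacam10 (log2 change 3.81) and Orm1 (3.34). The summed KLS markers were 15193 and 36373 in Pu.1-KO, against 59372 and 71603 in WT, and Ly6g was 211 and 166 in Pu.1-KO, against 77.3 and 25.3 in the WT libraries. Of 8 erythroid markers 4 fell, and of 10 eosinophil and basophil markers 5 fell. The part of these markers was not tested.

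In untimed GMPs, 8 of the 10 genes were called by limma between Daxx-KO and WT. Of these 6 rose (16.6% of all genes called higher), 2 fell (16.5% called lower), where 33.0% of all genes were called in all. Every call came with groups that did not overlap: in 6 genes both Daxx-KO libraries lay above both WT libraries and in 2 both lay below, where 33.1% and 34.1% of all genes did so. Unlike in the libraries labelled DKO, the largest rise was in Chil3 and a fall was seen in Camp.

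Chil3 was 5288 and 7150.3 in Daxx-KO, against 181 and 274 in WT, or 27.4 times the WT mean (log2 change 4.78 ± 0.20 SE, adjusted p = 1.6e-06). S100a9 was 17134 and 22474 against 1642 and 2139.7 (log2 change 3.39 ± 0.15 SE, adjusted p = 2.5e-06), and S100a8 was 14320.3 and 21805 against 2467 and 2368 (log2 change 2.87 ± 0.16 SE, adjusted p = 8.7e-06). Both calprotectin genes thus stood far above WT in each Daxx-KO library. Lrg1 was 330.5 and 363 in Daxx-KO, against 23.4 and 29.8 in WT (log2 change 3.66 ± 0.23 SE, adjusted p = 1.4e-05).

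The specific granule genes went different ways in untimed GMPs. Lcn2 was 1009.7 and 1399.5 in Daxx-KO, against 118 and 222 in WT (log2 change 2.87 ± 0.27 SE, adjusted p = 8.0e-05), and Ngp was 2362 and 4295 against 255 and 1022 (log2 change 2.64 ± 0.52 SE, adjusted p = 0.0044). Camp was 68.9 and 91.4 in Daxx-KO, against 116 and 171 in WT, a fall that was small and close to the threshold (log2 change -0.82 ± 0.26 SE, adjusted p = 0.041). It was not called by DESeq2 (adjusted p = 0.094) or without WT 1, WT 2 or Daxx-KO 1. Ltf overlapped, at 144 and 413 against 48.1 and 404 (log2 change 0.80 ± 0.82 SE, adjusted p = 0.51). Mmp8 fell to 6.08 and 4.89 in Daxx-KO from 24.7 and 86.7 in WT (log2 change -2.88 ± 0.66 SE, adjusted p = 0.0093), and was not called without WT 2. Mmp9 was 0 and 6.53 in Daxx-KO, against 5.20 and 65.1 in WT and was not called.

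Of 19 other late neutrophil genes tested in untimed GMPs 12 rose and 4 fell (median log2 change 1.23), with Olfm4 (log2 change 6.82), Padi4 (which citrullinates histones, 3.46), Cd177 (3.03) and Fcnb (a ficolin, 2.73) showing the largest rises. Of 12 primary granule genes 6 rose and 4 fell (median 0.23), and the largest change was the fall of Cst7 (cystatin F, -5.05). Irf8, the regulator of monocyte and dendritic fate, fell (-2.71), and Csf3r, the G-CSF receptor, rose (1.29). Of 9 monocyte markers 8 fell and none rose, and all 10 eosinophil and basophil markers fell. What these markers contributed to the granule gene values was not tested.

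**Figure D3:**
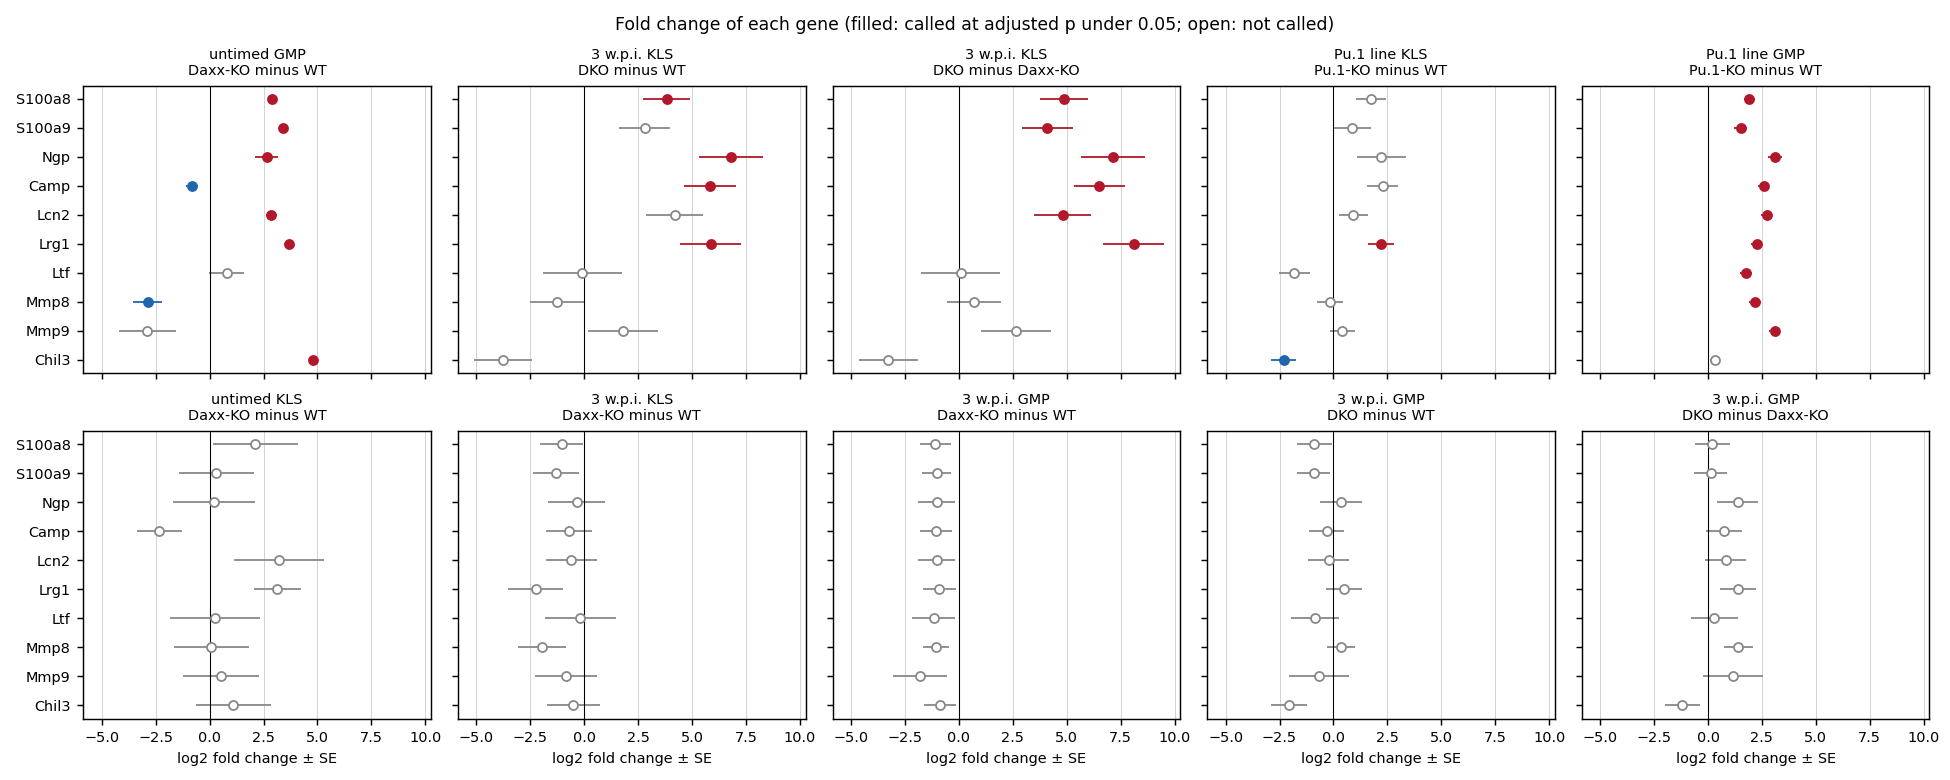
Log2 fold change of each gene with its SE (horizontal lines) in the 10 comparisons, from limma on log2(normalised count + 1), with filled points for genes called at an adjusted p under 0.05 and open points for the rest. Chil3 is highest in untimed Daxx-KO GMPs (4.78) and lies below 0 in the DKO and Pu.1-KO comparisons of KLS cells, and Ngp, Camp and Lrg1 lie above 0 in the same comparisons.

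In untimed KLS cells no gene of the 10 was called by limma or by DESeq2 and edgeR called 1, where limma called 23.1% of all genes. At an unadjusted p under 0.05 there was 1 of the 10 and 4823 of 13508 genes in all. The 2 WT libraries lay far apart. S100a9 was 1672 in WT 1 and 12.1 in WT 2, with Daxx-KO at 118 and 280.0, and Ltf was 795 in WT 1 and 1.72 in WT 2 (1 read), with Daxx-KO at 29.5 and 99.1. Daxx-KO thus fell between the 2 WT libraries for 8 of the genes. Without WT 1, 7 of the 8 genes still tested were called higher in Daxx-KO, and without WT 2, 9 genes were called lower. Of all genes, 1642 of 13143 were called higher without WT 1 and 1743 of 13511 lower without WT 2, and both fits assume that the lone WT library varies as the Daxx-KO libraries do. WT 1 also held transcripts of mature neutrophils that WT 2 lacked, with Retnlg at 186, Ly6g at 12.0 and Il1b at 32.7 against 0 for each in WT 2. Such transcripts were not limited to WT 1. Cxcr2 was 65.4 in WT 1 and 0 in WT 2, and it rose to 304 and 372 in Daxx-KO (log2 change 5.37, adjusted p = 0.035 by limma). Ly6g was 1.09 and 2.12 in Daxx-KO. A value of 0 in WT 2 allows up to 5.17 normalised counts (3 reads, counting error only). Lrg1, at 23.0 and 30.3 in Daxx-KO, against 8.60 and 0 in WT, had both Daxx-KO libraries above both WT libraries, as did 32.9% of all genes, and Camp, at 7.66 and 13.3 against 209.9 and 13.8, had both below, as did 29.8% of all genes. Of the other lists, 8 of 12 primary granule genes rose and 2 fell, 7 of 17 other late neutrophil genes rose and 1 fell, and 7 of 10 regulators rose and none fell (Cebpe with a log2 change of 3.66). Of 8 monocyte markers 5 rose and none fell, with sums of 11747 to 14021 in Daxx-KO against 472 to 752 in WT. All 5 plasma cell markers tested fell, as did 4 of 5 B-cell markers, of which 1 rose. The summed KLS markers were 9868 to 10801 in Daxx-KO and 38727 to 40233 in WT, with 8 of 10 called lower and 2 higher. What these markers contributed was not tested.

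Ratios between the genes within a library do not depend on its scaling, and the pairs below were chosen after their values were seen. Ngp over Ltf was 743 and 227 in the KLS libraries labelled DKO, against 2.10, 7.37 and 2.76 in WT and 3.03, 2.33 and 4.10 in Daxx-KO. It was 4.39 and 6.06 in DKO GMPs, against 2.24, 2.07 and 2.36 in WT and 3.22, 1.69 and 2.72 in Daxx-KO. Libraries labelled Pu.1-KO lay on the same side of WT, with a ratio of 13.8 and 38.6 against 1.34 and 1.52 in KLS cells and 3.95 and 5.29 against 1.80 and 1.79 in GMPs. Untimed Daxx-KO GMPs also lay above WT, at 16.4 and 10.4 against 5.30 and 2.53.

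Chil3 over Camp lay above WT in untimed Daxx-KO GMPs and KLS cells and below WT in the libraries labelled DKO and Pu.1-KO. In untimed KLS cells it was 5 and 7.23 in Daxx-KO, against 1.45 and 0.125 in WT, where WT 2 held 23 reads of the 10 genes. In untimed GMPs it was 76.7 and 78.3 in Daxx-KO, against 1.56 and 1.60 in WT. In KLS cells at 3 w.p.i. it was 0.000885 and 0.00157 in DKO, 1.10, 0.754 and 1.07 in WT and 1.04, 1.42 and 0.906 in Daxx-KO. GMPs at 3 w.p.i. gave 0.424 and 0.299 in DKO, 1.02, 1.30 and 1.27 in WT and 1.23, 1.51 and 1.33 in Daxx-KO. The DKO libraries lay below every other library of their table, and Daxx-KO at 3 w.p.i. did not stand apart from WT. In the Pu.1 line the ratio was 0.0347 and 0.0297 in Pu.1-KO KLS cells against 0.800 and 0.750 in WT, and 0.106 and 0.139 in Pu.1-KO GMPs against 0.529 and 0.641 in WT. The pair was chosen with its values known, so no test of these ratios was made.

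**Figure D4:**
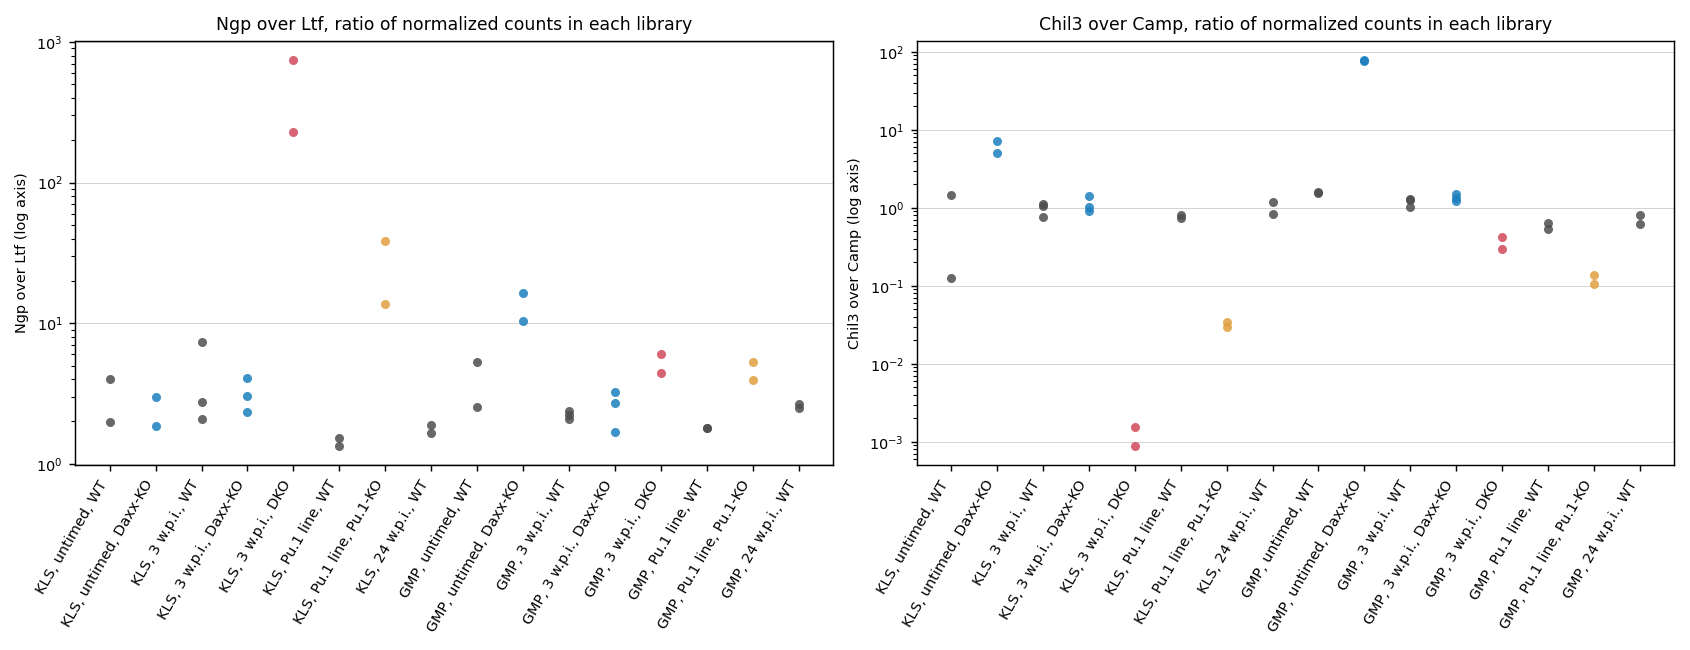
Ratio of normalised counts of Ngp to Ltf (left) and of Chil3 to Camp (right) in each library (points, log axes), by cell type, set and genotype. Ngp over Ltf reaches 743 and 227 in KLS libraries labelled DKO, and Chil3 over Camp is highest in untimed Daxx-KO GMPs (76.7 and 78.3) and lowest in the DKO KLS libraries (0.000885 and 0.00157).

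Ngp alone made up 82.3% and 71.9% of the reads of the 10 genes in the KLS libraries labelled DKO, against 21.4% to 34.7% in WT and 34.2% to 43.0% in Daxx-KO. It was 56.6% and 49.9% in DKO GMPs, and 54.5% and 55.6% in Pu.1-KO KLS cells against 30.1% and 30.7% in their WT. S100a9 over S100a8 was 0.997 and 1.47 in DKO KLS cells, 2.30, 2.24 and 2.83 in WT and 2.39, 2.10 and 1.77 in Daxx-KO, so the calprotectin pair was not in 1 ratio across genotypes either.

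Per kilobase of exon, the order of the genes differed between samples. GMPs from WT mice at 24 w.p.i. gave S100a9 the highest mean, 47966 ± 5008 normalised counts per kilobase (SD, n = 2), followed by Ngp at 25768 ± 2354, S100a8 at 14588 ± 87.7 and Camp at 11399 ± 1071. Chil3 at 3731 ± 327 and Ltf at 3513 ± 157 overlapped, Lcn2 followed at 2275 ± 2.52 and Lrg1 at 501 ± 104, and Mmp9 at 100.6 ± 11.8 and Mmp8 at 93.7 ± 29.8 were lowest and overlapped. KLS libraries labelled DKO gave Ngp the highest level, 98676 ± 23621 per kilobase, then Camp at 20638 ± 2943, S100a9 at 12923 ± 6006, S100a8 at 7664 ± 1586 and Lcn2 at 1954 ± 88.8, with Ltf at 91.3 ± 51.4 and Chil3 at 12.1 ± 6.30 far below. Mmp8 and Mmp9 were near the bottom of both orders.

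Cell types were set side by side as a description, because the KLS and GMP tables were scaled separately. In Daxx-KO at 3 w.p.i. all 3 GMP libraries lay above all 3 KLS libraries for 9 of the 10 genes, with a median GMP to KLS ratio of means of 40.6. In WT at 3 w.p.i. this held for 8 genes with a median ratio of 17.5, and in WT at 24 w.p.i. for 8 genes with a median of 9.55. In the libraries labelled DKO it held for 6 genes with a median of 2.05, and for Ngp, Camp and Lrg1 both KLS libraries lay above both GMP libraries. Chil3 showed the widest gap in DKO, 158 times higher in GMPs. WT of the Pu.1 line differed from the other timed WT in that GMPs lay above KLS cells for 3 genes and the rest overlapped (median ratio 1.03). At 24 w.p.i. Mmp9 ran the other way, with 677 and 620.1 in KLS cells and 326 and 385 in GMPs, and Mmp8 overlapped.

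Over the 36 libraries, with each gene centred on its table, the 45 pairs of genes had a median Pearson r of 0.706, from -0.0127 to 0.969, and a median Spearman rho of 0.664. Values of 1 library share its depth and its mix of cells, so these are descriptions without a p. S100a8 went most closely with Lcn2 (0.969) and S100a9 (0.968), and Ngp went with Lcn2 (0.931). Chil3 was the least tied to the rest (0.399 with the mean of the other 9 genes, against 0.950 for Lcn2), and its r with Camp was -0.0127 and with Lrg1 0.153. With each gene centred on its group in place of its table, so that genotype no longer enters, the median rose to 0.910, and Chil3 with Camp rose to 0.963. Pooled over all groups, the deviations of the 10 genes from their group means thus went together, while between genotypes the genes parted. Single groups could differ: from DKO 1 to DKO 2 in KLS cells, Ngp and Lrg1 fell while Camp, Ltf and S100a9 rose. Deviations in a group of 2 libraries mirror each other, which raises the agreement counted here.

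**Figure D5:**
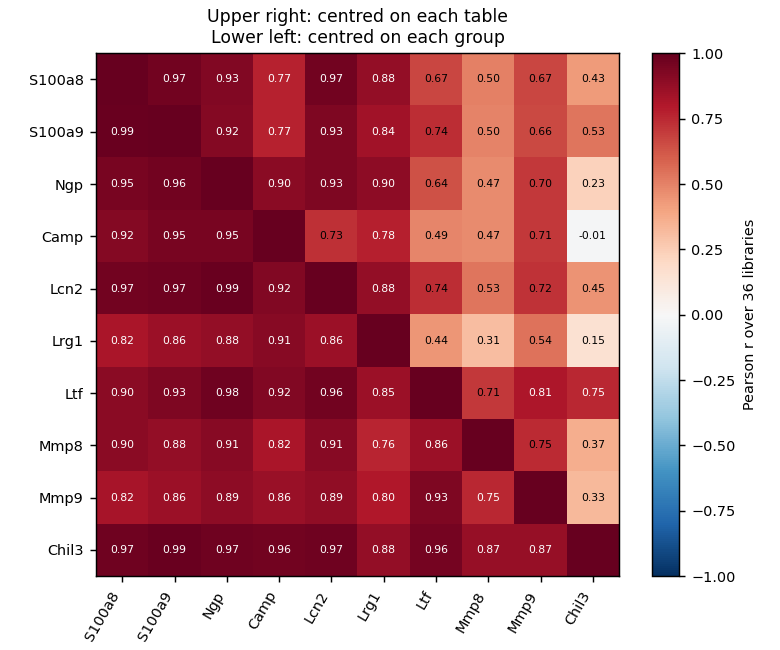
Pearson r of log2(normalised count + 1) between each pair of the 10 genes over 36 libraries, centred on each table (upper right) and on each group (lower left). In the upper right Chil3 has low values with Camp (-0.01), Lrg1 (0.15) and Ngp (0.23), and in the lower left all values lie at or above 0.75.

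The 10 other genes whose table-centred pattern was most like the mean of these 10, among 8867 genes compared over 36 libraries, were Sgms2 (sphingomyelin synthase 2, r = 0.811), Abca13 (0.790), Sema4a (0.769), Hp (haptoglobin, 0.769), C3 (complement C3, 0.766), Sorl1 (0.758), Prkcb (protein kinase C beta, 0.754), Megf9 (0.750), Pglyrp1 (a peptidoglycan recognition protein of neutrophil granules, 0.749) and Aoah (acyloxyacyl hydrolase, which inactivates endotoxin, 0.748). Hp and Pglyrp1 were also on the list of other late neutrophil genes.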

How the data were processed

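RNA-seq of sorted mouse KLS cells and GMPs was taken from 8 gene-level tables of normalised counts, a signal that the authors made by dividing read counts per gene by DESeq2 size factors before they were deposited. Submitters' processing notes name CASAVA 1.8.4, cutadapt 1.13, STAR 2.5.3, DESeq2 1.16.1 and mm10, and the methods name GENCODE annotation. The labels give 1 library kit (Ovation SoLo) for all samples, and the methods name another for libraries of non-transplanted mice, so the kit of each library is not settled. Multiplying out the smallest step of each column gave whole reads for all values (within 0.01), and depths are sums of these reads.

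The 10 genes, the related lists and the tests were chosen with earlier results of these data known. Named genes other than the 10 were the 4 largest called changes of a list, or marker genes. Genes with a mean of at least 10 were tested on log2(value + 1) with limma 3.58.1 (R 4.3.3), trended, all mapped libraries of a table in 1 fit, with Benjamini-Hochberg adjustment over all genes and a threshold of 0.05. Log2 changes understate changes of low genes. Group means and ratios of means are on the normalised count scale. The procedure was tested on simulated counts that held genes changed 4-fold. Their simulated spread was smaller than that of most of the 10 genes in groups such as WT KLS cells at 3 w.p.i. How well such changes are found in the 10 genes was therefore not measured. Alternatives were a pseudocount of 5, no filter, TMM scaling, edgeR 4.0.16 and DESeq2 1.42.0 on the whole reads, a replicate block, only the groups compared, and leaving out each library. Same-numbered libraries of different genotypes did not deviate together (r from -0.21 to 0.069), so the numbers were not taken as pairs.

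The lists held primary granule genes, other late neutrophil genes, granulocyte regulators, and markers of monocytes, eosinophils and basophils, B cells, T cells, plasma cells, erythroid cells, KLS cells and GMPs. No T-cell list had more than 1 call, and no list had a call for Daxx-KO against WT at 3 w.p.i. or in any comparison of GMPs at 3 w.p.i. Levels per kilobase used GENCODE exon lengths. Of 111 columns of values in all tables, 75 were not used: those of repeat elements, and those that neither the labels nor column endings tie to a single sample or group. Libraries are labelled as separate samples, and p-values from limma combine the spread between them with a spread shared across genes. In the Pu.1 line those p-values rest on the shared spread alone.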

Additional observations from a re-analysis of the deposited data

Results flagged for a closer look

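In the Pu.1 line, 2 of the 10 genes lay on opposite sides of WT in KLS cells and GMPs: in KLS cells both Pu.1-KO libraries were below both WT libraries (31.9% of all genes tested were) and in GMPs both were above (31.5% were). Ltf had a log2 change of -1.81 in Pu.1-KO KLS cells, which was not called (adjusted p = 0.11 by limma), and of 1.75 in Pu.1-KO GMPs (adjusted p = 1.9e-08 by limma). Chil3 had a log2 change of -2.31 in KLS cells (adjusted p = 0.023 by limma) and of 0.32 in GMPs, which was not called (adjusted p = 0.33 by limma). The difference between the cell types was not tested, since the tables were scaled separately.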

How the results depend on the processing

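Of the comparisons of the 10 genes, Daxx-KO against WT at 3 w.p.i. and the 3 comparisons of GMPs at 3 w.p.i. gave no call under any alternative run. In untimed KLS cells, edgeR called 1 gene in place of 0 and the replicate block 3, and leaving out 1 library gave 0 to 9. In untimed GMPs the block called 9 in place of 8, a crossed block added after seeing the data called 10, and leaving out 1 library gave 7 to 9. In KLS cells labelled DKO against WT edgeR called 2 in place of 4, the block (without WT 3) 6, and leaving out 1 library gave 0 to 6. Against Daxx-KO the range was 0 to 7 around 6. In Pu.1-KO KLS cells TMM called 4 and DESeq2 5 in place of 2, with 0 to 4 on leaving out 1 library, and in Pu.1-KO GMPs that range was 5 to 10 around 9. In untimed KLS cells the direction turned with the WT library left out: 7 genes were called higher without WT 1 and 9 lower without WT 2, and the median log2 change of the genes tested ran from -2.95 to 4.42. Ltf in untimed GMPs ran from -0.72 to 2.32 on leaving out 1 library. In DKO against WT it ran from -2.15 to 1.74 and was 1.74 with the block. In DKO against Daxx-KO it ran from -0.72 to 1.20 and was -0.71 by edgeR, -0.70 by DESeq2 (also without its outlier filter) and -0.72 with the block. In Pu.1-KO KLS cells Mmp8 was 0.0031 by TMM and ran from -1.12 to 0.83, and Mmp9 ran from -0.43 to 1.24. The cause of these changes was not tested.

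Over all genes, counts of calls moved more. For Pu.1-KO KLS cells they were 190 (110 higher, 80 lower), 1599 by TMM (1272 higher, 327 lower), 1687 by edgeR (1493 higher, 194 lower) and 846 by DESeq2 (576 higher, 270 lower). For Daxx-KO against WT KLS cells at 3 w.p.i. they were 39, 325 by DESeq2 and 81 with the block, and for DKO against Daxx-KO 2340 and 1283 with the block. In GMPs at 3 w.p.i. they were 13 and 67 by DESeq2 (Daxx-KO against WT), 40, 261 by DESeq2 and 5 with 2 groups only (DKO against WT), and 8, 18 by TMM, 20 by edgeR and 266 by DESeq2 (DKO against Daxx-KO). In untimed KLS cells they were 3118 and 1751 without the filter. Leaving out 1 library gave 13 (without WT a) to 6905 (without Pu.1-KO a) in Pu.1-KO KLS cells, and 151 (without WT b) to 8163 (without Pu.1-KO b) around 3412 in Pu.1-KO GMPs. It gave 419 (without Daxx-KO 2) to 3290 in untimed KLS cells, and 2162 (without WT 2) to 4448 around 4209 in untimed GMPs. In KLS cells at 3 w.p.i. it gave 574 (without DKO 1) to 3195 around 2681 for DKO against WT, 672 (without DKO 1) to 2481 for DKO against Daxx-KO, and 8 (without Daxx-KO 1 or WT 1) to 137 (without WT 3) for Daxx-KO against WT. In GMPs at 3 w.p.i. it gave 4 to 16, 2 to 90 and 0 to 71 for Daxx-KO against WT, DKO against WT and DKO against Daxx-KO. No paired analysis was possible for GMPs at 3 w.p.i. and the Pu.1 line because the columns carry no replicate number of the labels. Groups of 2 or 3 libraries limit all of these values, and in untimed WT 2 KLS cells 1 read was worth 1.72 normalised counts.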
